A study of Mus musculus with 48 samples.

Results

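Full-thickness proximal colon of 12 week old Il10-/- mice was compared with that of 12 week old C57BL/6J mice, across every gene the arrays measured. The arrays were chosen by their labels, which give intact colon as tissue, 12 weeks as sampling age, and a genotype. This gave 6 arrays of each strain, each from a different mouse, out of 48 arrays in the study. Another 12 arrays of intact colon, 6 of each strain from mice killed at 6 weeks, shared the statistical model and were used to ask whether a strain difference was already present at the younger age. All mice were males of C57BL/6J background, lived in conventional housing, ate an AIN76A diet and were inoculated with Enterococcus strains and complex gut flora when about 6 weeks old. The Il10-/- mice were of strain B6.129P2-Il10tm1Cgn/J and were bought from a breeder in the USA. The C57BL/6JArc controls came from a colony in New Zealand. Genotype, breeder and colony therefore cannot be told apart in any difference below. The study's methods say that a score of colon histology was used to choose the mice put on arrays, so that they covered the range seen.

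Interleukin 10 is a cytokine of regulatory T cells, macrophages and other leukocytes that restrains the response of macrophages and T cells to gut microbes. It binds a receptor made of Il10ra and Il10rb and signals through Stat3, which also induces the feedback inhibitor Socs3. Mice that lack it develop colitis when they carry a normal gut flora, with neutrophils, macrophages and T cells that make interferon gamma in the colon wall.

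RNA of each colon was labelled with Cy3 and hybridized beside a Cy5-labelled pool of Swiss mouse intestine, kidney, liver and fetus. Each value is the log2 ratio of the colon sample over that pool, so 1 unit is a doubling relative to the pool, and levels of different genes are not comparable. The probes named 27666 genes. Cy3 spots that stood well above background made up a share that ran from 48.8 to 75.2% on the Il10-/- arrays and from 49.1 to 75.6% on the C57BL/6J arrays. Slides 2 and 3, which carry replicates 2 and 3 of every group, were scanned on another day and had brighter negative control spots (median Cy3 of 129 to 161 against 47.3 to 48.6 on slides 1, 4, 5 and 6). Each slide held 1 array of every group, so the strains were balanced over slides.

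The markers of the labelled tissue were present, but so was signal for genes of other tissues. All 14 epithelial markers, among them the keratins Krt8 and Krt20 and the colon chloride exchanger Slc26a3, and all 14 smooth muscle markers were well above background on at least 1 of the 12 arrays. The same held for 16 of 17 genes of pancreas, liver, skeletal muscle and blood, so this measure does not tell the colon from other tissues. None of those 17 genes was called between the strains. The array cannot check the genotype. The Il10 probe (chromosome 1 of mm7, 130928485 to 130928544) read 1.19 to 1.80 on arrays labelled Il10-/- (median 1.58) and -0.01 to 0.17 on arrays labelled C57BL/6J (median 0.08). It was thus higher in the mice labelled as knockouts, by 1.497 on the log2 scale (standard error 0.10, adjusted p = 6.3e-10). The probe was well above background on 6 Il10-/- arrays but on 2 C57BL/6J arrays, so the size of this difference is not well measured. Whether the probe lies in the part of the gene that the allele disrupts is not known from the sources used here, so the value checks nothing. Il10-/- and C57BL/6J below name the mice so labelled, and whether a gene is higher or lower depends on these labels being right.

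A gene was called when at least 1 of its probes differed by more than 1.5-fold at an FDR under 0.05 in limma. Of 27666 genes, 3475 (12.6%) were called. There were 1480 genes higher in Il10-/- colon (5.35%) and 2001 lower (7.23%), with 6 genes that had probes in both directions. The 12 mice fell into their strains on the first principal component, which held 49.0% of the variance. Replicate 2 of the Il10-/- mice lay nearest to the controls on it, at 11.6 against 35.0 to 55.0 in the other 5, and 3879 genes were called without that mouse. Values of 6 mice against 6 did not overlap for 2667 genes (9.64%). The rule that named 44 genes required no overlap, except of the fixed Il10, Il10ra, S100a8, S100a9 and S100g. Separation of the strains in the other named genes was thus set by the choice. Beside the 44 genes named by rule, members of the lists are given as examples chosen after their values were seen. Counts of gene lists below are read against these shares, and the median of a list against the median log2 fold change of all genes, which was -0.03.

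**Figure D1:**
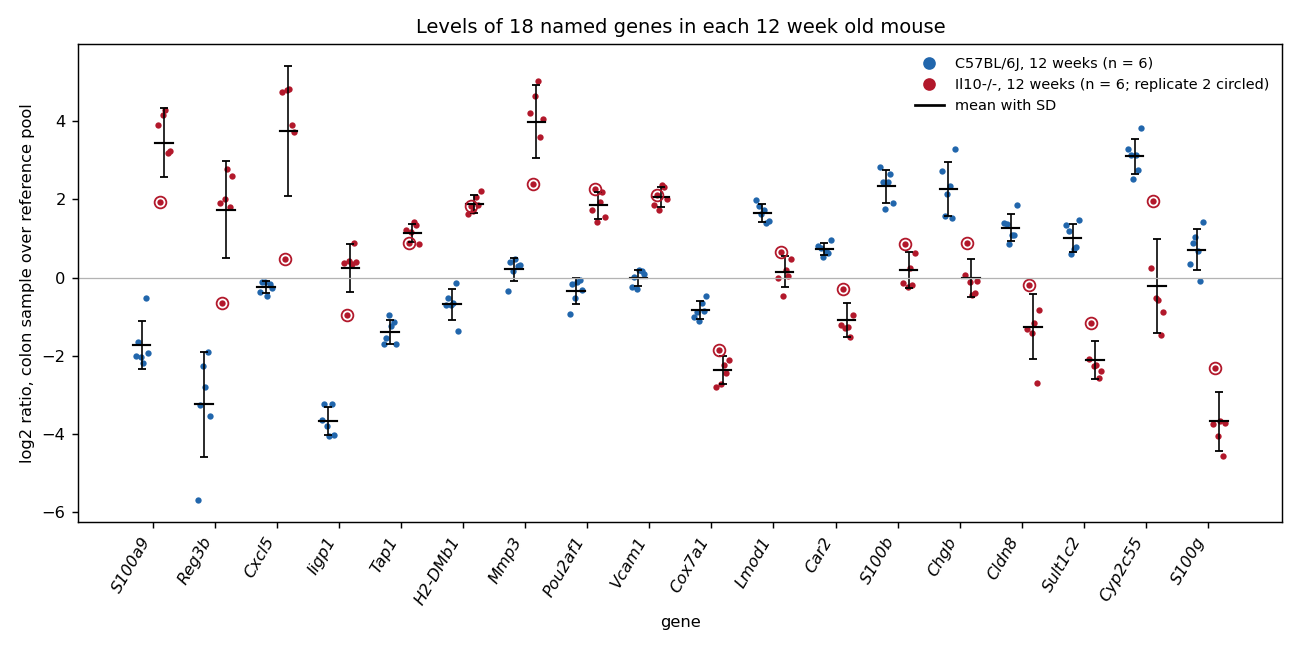
Log2 ratio of the colon sample over the reference pool (vertical axis) for 18 named genes in each 12 week old mouse, with 6 points per strain, a bar at the mean and whiskers of 1 SD; replicate 2 of the Il10-/- mice is circled. The strains do not overlap for any of the 18 genes, which was a condition of the rule that named them. Replicate 2 is the Il10-/- mouse nearest to the controls for Cxcl5 (0.48), Reg3b (-0.66) and Iigp1 (-0.95).

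The largest rises were in proteins that neutrophils and epithelium make against microbes. In a piece of whole tissue, more cells of a type and more RNA per cell cannot be told apart. S100a9 and S100a8, which together form calprotectin of neutrophils, and Reg3b and Reg3g, lectins that the epithelium secretes against bacteria, led all genes. The S100a8 ratio ran from 0.69 to 3.87 in Il10-/- mice (median 2.82) and from -2.19 to -1.13 in C57BL/6J mice (median -1.38), a log2 difference of 4.23 (standard error 0.67, adjusted p = 5.0e-05). S100a8 was well above background on 3 of 6 control arrays, so the size of its rise is not well measured. The Reg3g ratio ran from -1.03 to 2.11 (median 1.27) against -5.16 to -2.79 (median -3.66), a log2 difference of 4.91 (standard error 0.76, adjusted p = 4.2e-05). All 6 Il10-/- mice lay above all 6 controls for both genes, and the lowest Il10-/- value belonged to replicate 2 in each case. Reg3b and Reg3g are close relatives, and their probes may share signal.

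Of 28 antimicrobial and acute-phase genes, 19 were called higher and 1 lower, with a median of 1.47. Among the other members, the chitinase-like Chil3 of macrophages rose by 3.67, the goblet cell protein Retnlb by 2.69 and the iron-binding lactoferrin gene Ltf by 2.59. Among enzymes that make reactive oxygen and nitrogen, Nox1 and Nos2 rose. The epithelial oxidase Nox1 went from -0.91 to -0.16 in C57BL/6J mice (median -0.55) to 1.21 to 2.16 in Il10-/- mice (median 1.79), a difference of 2.31 (standard error 0.16, adjusted p = 8.5e-10). Nos2, the inducible nitric oxide synthase, was well above background on 5 of 6 Il10-/- arrays and on no C57BL/6J array. Its rise was therefore at least 2.92-fold (adjusted p = 3.1e-07). Here "at least" means that the dimmer strain was given, on each array, either the weakest signal among probes well above background or its own signal if stronger. Both strains were read in Cy3 for this fold. Duoxa2, which matures the epithelial oxidase Duox2, rose by 3.01, while Duox2 itself was not called at -0.79 (adjusted p = 0.19). The one member called lower, Ang4, an antimicrobial ribonuclease of Paneth and goblet cells, fell by 2.01 with overlapping groups.

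Il1b, Ifng and Tnf were among the cytokines called higher. Of 25 interleukin and TNF family genes, 11 were called higher and 0 lower, with a median of 0.43. Il1b, the central macrophage cytokine, read 2.07 to 5.07 in Il10-/- mice (median 4.27) and 0.23 to 1.53 in C57BL/6J mice (median 0.76), a log2 difference of 3.21 (standard error 0.59, adjusted p = 2.8e-04). Ifng, the interferon of T helper 1 cells, read 1.68 to 3.54 (median 2.92) against -0.54 to 0.30 (median -0.27), a difference of 2.97 (standard error 0.46, adjusted p = 4.1e-05). Tnf rose by 2.18 (standard error 0.22, adjusted p = 1.7e-07). None of the 3 genes overlapped between strains. Il6 and Il17a were well above background on no control array and rose at least 1.82-fold and at least 1.19-fold (adjusted p = 0.012 and 6.0e-06). Il4, Il5 and Il13 were not called, with log2 fold changes of -0.07, -0.06 and -0.08, and the same held for Il23a at -0.08. Il5 and Il23a were not well above background on any of the 12 arrays, so that for these no change was detectable at this signal.

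Of 13 genes of the interleukin 10 family and its receptors, 4 were called higher and 0 lower, namely Il10 itself, Il10ra, Socs3 and Il22. Il10ra, the ligand-binding chain, read 1.49 to 2.04 in Il10-/- mice (median 1.64) and -0.01 to 0.58 in C57BL/6J mice (median 0.23), a difference of 1.46 (standard error 0.14, adjusted p = 8.2e-08). Il10rb, the chain shared with other family members, was not called at -0.09. Socs3 read -0.23 to 1.02 (median 0.90) against -1.27 to -0.73 (median -0.92), a rise of 1.65 (standard error 0.29, adjusted p = 1.5e-04). Neither gene overlapped between strains. Il22, which drives Reg3 genes in epithelium, rose by 1.11 (standard error 0.32, adjusted p = 0.012).

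More CXC chemokines were called higher than lower, and CC chemokines were called in both directions. Of 15 CXC chemokines, 8 were called higher and 1 lower, with a median of 1.02. Cxcl5, a neutrophil attractant, read 0.48 to 4.82 in Il10-/- mice (median 4.32) and -0.48 to -0.11 in C57BL/6J mice (median -0.22). It was well above background on no control array, and its rise was at least 15.1-fold (adjusted p = 2.3e-04). In 5 of the 6 Il10-/- mice the value was 3.72 or more, while replicate 2 at 0.48 was just above the controls. Cxcl9 and Cxcl10, which interferon gamma induces and which attract T cells through Cxcr3, rose by 3.80 and 3.57. Pf4, a chemokine of platelets, was the one CXC member called lower, at -1.28. Of 19 CC chemokines, 7 were called higher and 4 lower. Ccl2, which recruits monocytes, read 1.38 to 2.81 (median 2.30) against -0.17 to 0.87 (median 0.56), a rise of 1.73 (standard error 0.40, adjusted p = 0.0024). Members called lower included the eotaxin Ccl24 at -1.16 and Ccl25, which draws lymphocytes to the gut through Ccr9, at -0.87. Of 22 chemokine receptors, 11 were called higher and 1 lower. Ccr7, the receptor that guides dendritic cells and naive T cells into lymphoid tissue, read 1.27 to 2.51 (median 1.69) against -0.24 to 0.51 (median 0.01), a rise of 1.76 (standard error 0.20, adjusted p = 7.5e-07). It was well above background on 3 of 6 control arrays.

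Interferon-induced genes had the highest median of the 42 gene lists examined. Of 34 measured, 24 were called higher and 0 lower, with a median of 1.79, and the groups were apart for 24. Iigp1, a GTPase that attacks the vacuoles of intracellular parasites, read -0.95 to 0.89 in Il10-/- mice (median 0.38) and -4.05 to -3.24 in C57BL/6J mice (median -3.71), a rise of 3.90 (standard error 0.58, adjusted p = 2.4e-05). The 12 GTPases of the Gbp and immunity-related families on the list (Gbp2 to Gbp7 and Iigp1, Tgtp1, Igtp, Irgm1, Irgm2 and Ifi47) were all called higher, by 1.48 to 3.90, though near-identical copies in these families may share signal. Among the 10 members not called, Usp18, Isg15, Ifit1 and Rsad2 had log2 fold changes of 1.61, 1.19, 0.94 and -0.35, with standard errors of 0.53 to 0.64 and overlapping groups. Their values spread in the controls, where Isg15 ran from -3.25 to -1.07.

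The promoters of interferon-induced genes were searched for the sequences that factors of this response bind. Interferon factors bind the interferon-stimulated response element, taken here as GAAANNGAAA or its reverse complement TTTCNNTTTC, and the gamma-activated site was taken as TTCNNNGAA, which is its own reverse complement. The 250 bases before the gene start, from RefSeq on GRCm38.p6, are printed 5′ to 3′ on the strand of the gene for 3 list members that rose strongly and hold the response element, and for B2m, the light chain of class I molecules. Capitals mark matches to either motif.
Tgtp1 (chr11:48992247-48992496, minus strand): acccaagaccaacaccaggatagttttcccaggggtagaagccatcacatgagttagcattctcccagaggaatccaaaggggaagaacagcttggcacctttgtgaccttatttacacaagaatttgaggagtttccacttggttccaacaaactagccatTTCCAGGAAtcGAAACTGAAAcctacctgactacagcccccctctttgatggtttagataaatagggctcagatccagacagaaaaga
Igtp (chr11:58199306-58199555, plus strand): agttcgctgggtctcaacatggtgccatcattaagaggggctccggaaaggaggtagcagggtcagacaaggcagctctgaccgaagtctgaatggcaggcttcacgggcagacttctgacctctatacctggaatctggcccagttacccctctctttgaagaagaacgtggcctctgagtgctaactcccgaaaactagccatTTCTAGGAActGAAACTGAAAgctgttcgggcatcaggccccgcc
Gbp2 (chr3:142620413-142620662, plus strand): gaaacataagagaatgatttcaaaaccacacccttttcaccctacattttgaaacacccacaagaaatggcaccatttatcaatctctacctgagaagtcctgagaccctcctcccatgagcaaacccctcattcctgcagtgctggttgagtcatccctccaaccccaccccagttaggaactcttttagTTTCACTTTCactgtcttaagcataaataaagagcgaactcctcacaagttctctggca
B2m (chr2:122147437-122147686, plus strand): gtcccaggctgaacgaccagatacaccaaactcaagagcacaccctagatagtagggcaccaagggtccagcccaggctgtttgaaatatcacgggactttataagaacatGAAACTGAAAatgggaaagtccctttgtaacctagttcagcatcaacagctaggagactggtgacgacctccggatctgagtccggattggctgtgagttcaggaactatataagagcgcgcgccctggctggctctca
In Tgtp1 and Igtp the gamma-activated site stands directly before the response element, starting 88 and 45 bases before the gene start.

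Of the 34 interferon-induced genes, 24 matched a promoter of the table, and 15 of these (62.5%) held the response element, against 3.46% of 27025 genes with a promoter. It was found in 10 of 17 matched genes called higher and in 5 of 7 not called. The gamma-activated site was found in 8 of those 17 (Gbp5, Gbp7, Ifit2, Igtp, Irf1, Irf8, Irgm2 and Tgtp1) and in 1 of the 7 (Oas1a), against 8.13% of all genes. Tgtp1 rose from a median of -2.55 in controls to 1.04, Igtp from -3.34 to -0.04 and Gbp2 from -1.08 to 1.55. A motif of NF-kappaB was found in 4 of 11 matched CXC chemokines (Cxcl1, Cxcl2, Cxcl3 and Cxcl10) and in 4.46% of all genes. All 4 were among the 6 matched CXC chemokines called higher. Of the other lists searched, called or not, the response element was held by 2 of 15 matched class I genes (B2m and H2-T23), 1 of 8 class II genes, 2 of 11 CXC chemokines, 1 of 21 cytokines, 1 of 37 xenobiotic genes and 1 of 9 smooth muscle genes. None of the 6 matched class II genes called higher held it. The NF-kappaB motif was held by 2 of 24 interferon-induced genes, 4 of 15 class I genes, 1 of 8 class II genes, 3 of 21 cytokines, 2 of 37 xenobiotic genes and 1 of 9 smooth muscle genes.

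Most genes of both arms of antigen presentation were called higher. Of 16 genes of the class I pathway, 12 were called higher and 0 lower, with a median of 0.80. Tap1, which pumps peptides into the endoplasmic reticulum, read 0.87 to 1.43 in Il10-/- mice (median 1.18) and -1.71 to -0.97 in C57BL/6J mice (median -1.40), a rise of 2.53 (standard error 0.38, adjusted p = 2.6e-05). The immunoproteasome subunits Psmb8 and Psmb9 rose by 2.23 and 2.15, and B2m by 1.33. Of 11 class II genes, 8 were called higher and 0 lower, with a median of 1.65. H2-DMb1, which helps to load peptides, read 1.62 to 2.21 (median 1.84) against -1.37 to -0.14 (median -0.68), a rise of 2.56 (standard error 0.28, adjusted p = 6.4e-07). Ciita, the master activator of class II genes, rose by 2.65 and the invariant chain Cd74 by 2.01. All Il10-/- mice, replicate 2 among them, lay 1.44 to 2.02 above the control mean for the median of the class II list. Class I and II heavy chains are a multigene family whose probes may share signal.

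Of 26 sensors of microbes and their adaptors, 11 were called higher and 1 lower. Clec7a, the dectin that binds fungal glucan on myeloid cells, read 3.60 to 4.33 in Il10-/- mice (median 3.97) and -0.17 to 1.79 in C57BL/6J mice (median 0.81), a rise of 3.18 (standard error 0.42, adjusted p = 6.1e-06). Nod2, which detects bacterial cell wall and is a gene of Crohn's disease, rose by 0.94 (standard error 0.14, adjusted p = 2.4e-05). Tlr5, the flagellin receptor, was the member called lower, at -0.69 (standard error 0.11, adjusted p = 7.0e-05), while Tlr4 was not called at 0.12. Of 20 complement genes, 10 were called higher and 1 lower. C4b, a component of the classical pathway, read -0.89 to -0.09 (median -0.72) against -3.15 to -1.93 (median -2.37), a rise of 1.85 (standard error 0.24, adjusted p = 6.1e-06).

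**Figure D2:**
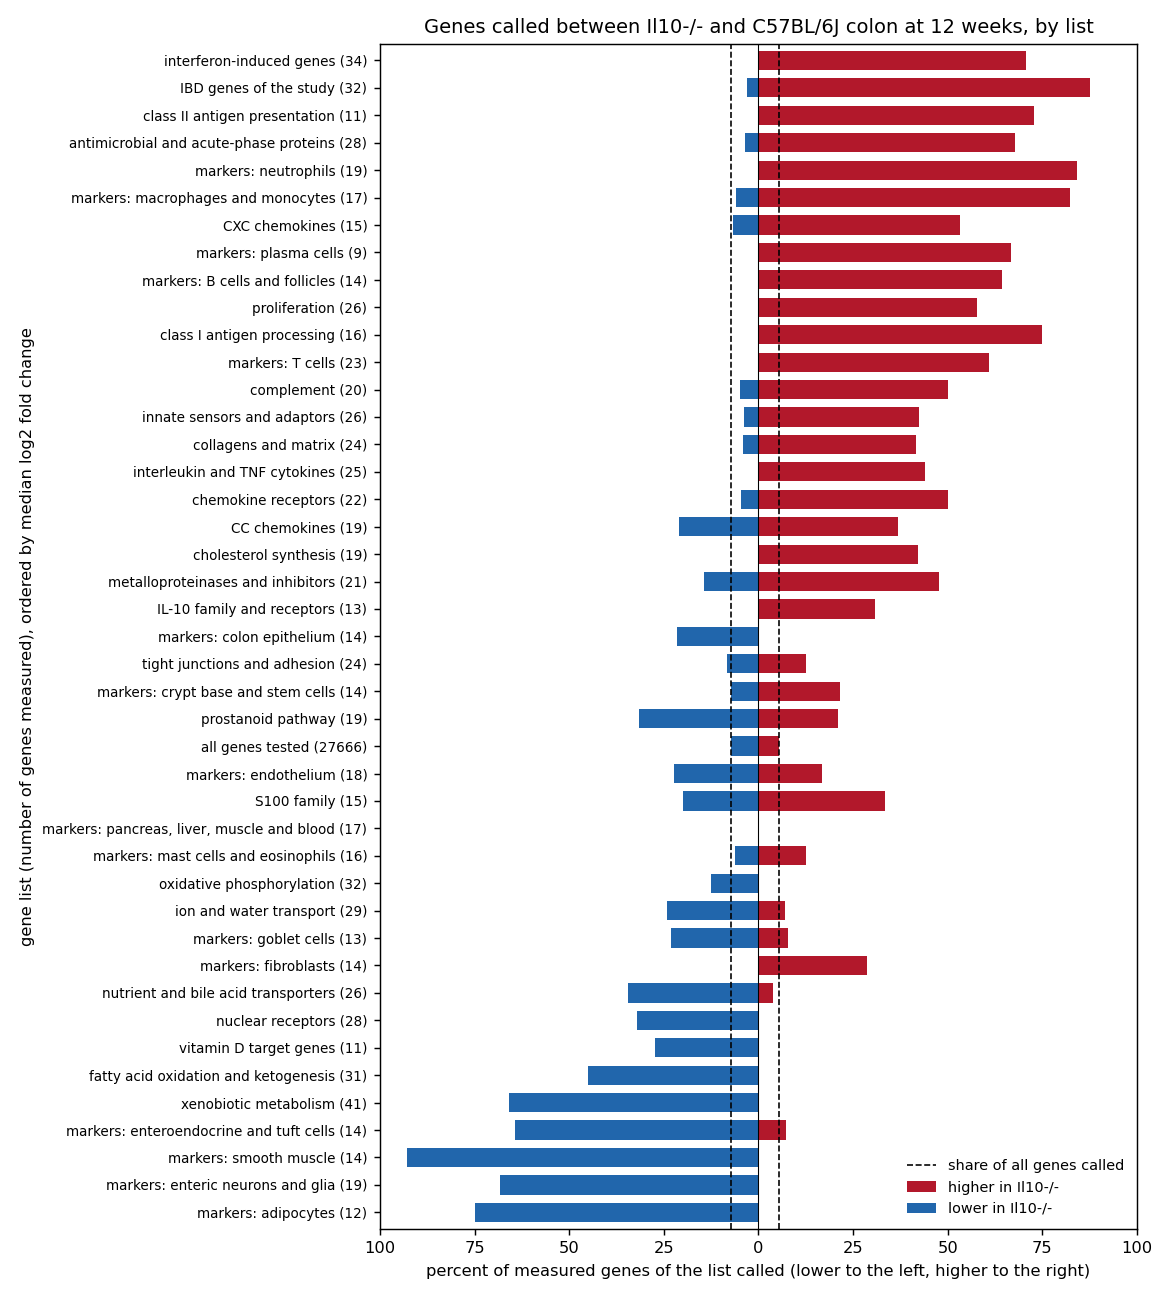
Percent of the measured genes of each list that were called higher (to the right) or lower (to the left) in Il10-/- colon at 12 weeks, with lists ordered by median log2 fold change and the number of genes measured in brackets; dashed lines stand at the shares of all genes, 5.35% higher and 7.23% lower. Lists of immune cells and interferon responses extend to the right and those of muscle, nerve, fat and xenobiotic metabolism to the left.

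Markers of neutrophils, macrophages, T cells, B cells and plasma cells were called higher more often than all genes, and those of mast cells and eosinophils were mixed. Of 19 neutrophil markers, 16 were called higher and 0 lower, with a median of 1.28. Macrophage and monocyte markers followed with 14 higher and 1 lower of 17 and a median of 1.12. The member called lower, Cd163, is a scavenger receptor of resident macrophages and changed by -1.04, whereas Ly6c1, listed as a mark of monocytes, read -0.60 to 0.53 in Il10-/- mice (median 0.33) against -1.95 to -1.32 in C57BL/6J mice (median -1.75), a rise of 1.91 (standard error 0.38, adjusted p = 6.8e-04). Of 23 T cell markers, 14 were called higher and 0 lower. Icos, a costimulator of activated T cells, read 1.35 to 2.47 (median 2.06) against -0.38 to 0.40 (median -0.16), a rise of 2.07 (standard error 0.21, adjusted p = 2.2e-07). Cd3e, Foxp3 and Cd4 were not called at -0.13, 0.20 and 0.05. B cell and follicle markers had 9 higher of 14 and plasma cell markers 6 higher of 9, both with a median of 1.00. Ms4a1, which encodes CD20, read 0.89 to 2.89 (median 1.54) against -1.47 to 0.73 (median -0.79), a rise of 2.30 (standard error 0.49, adjusted p = 0.0011). Pou2af1, a coactivator of immunoglobulin genes, read 1.41 to 2.26 (median 1.83) against -0.94 to -0.06 (median -0.24), a rise of 2.20 (standard error 0.24, adjusted p = 4.4e-07). Of 16 genes of mast cells and eosinophils, 2 were called higher and 1 lower, with a median of -0.11. These were the eosinophil protein Prg2, which rose by 0.85, the histamine-forming enzyme Hdc, which rose by 1.71, and Kit, which fell by 0.82 and also marks the pacemaker cells of the gut muscle.

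The Il10-/- mice, or their arrays, were not alike. Replicate 2 lay on slide 2, scanned on another day with brighter negative controls, so mouse and slide cannot be told apart for it. The median of the neutrophil list, relative to the control mean, was 1.27 to 1.91 in 5 Il10-/- mice and 0.54 in replicate 2. In the B cell list the order differed, with replicate 2 the highest of the 6 at 1.56. Among the controls, replicate 5 had the highest median of the interferon list, at 0.49 against 0.04 or less in the other 5.

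**Figure D3:**
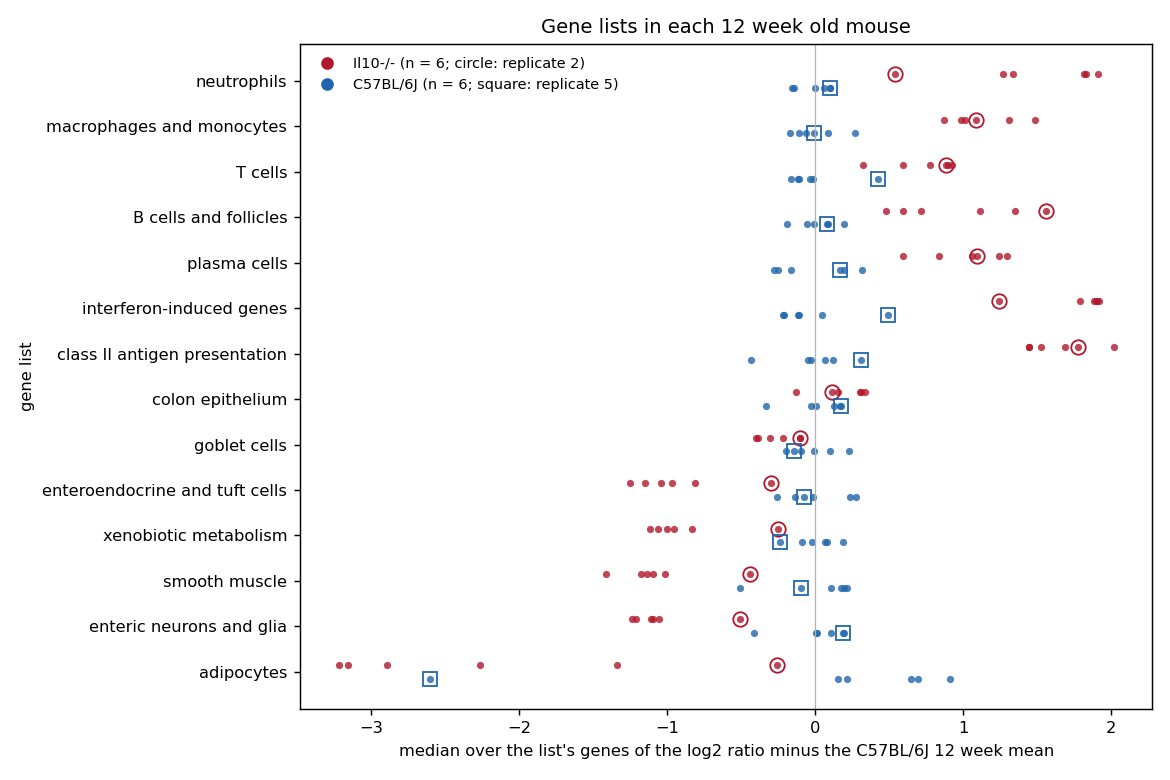
Median over the genes of a list of the log2 ratio minus the mean of the 12 week old C57BL/6J mice (horizontal axis), for 14 lists and each of the 12 mice; replicate 2 of the Il10-/- mice is circled and replicate 5 of the C57BL/6J mice is boxed. The strains are apart for neutrophils (0.54 to 1.91 against -0.16 to 0.10) and overlap for adipocyte markers, where the boxed control lies at -2.61.

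Vessel and matrix genes changed in part. Of 18 endothelial markers, 3 were called higher and 4 lower. The adhesion molecules that leukocytes bind on inflamed vessels were among those higher. Vcam1 read 1.72 to 2.37 in Il10-/- mice (median 2.06) and -0.28 to 0.19 in C57BL/6J mice (median 0.04), a rise of 2.08 (standard error 0.17, adjusted p = 1.7e-08). Of the 3 probes of Vcam1, 2 were called, and the lowest value was -0.00. Icam1 rose by 2.00. The pan-endothelial Pecam1 and Cdh5 were not called at 0.07 and -0.25. Of 21 metalloproteinases and their inhibitors, 10 were called higher and 3 lower. Mmp3, the stromelysin of activated fibroblasts, read 2.38 to 5.02 (median 4.13) against -0.35 to 0.46 (median 0.30), and Mmp10 rose by 3.24. The inhibitors were split, with Timp1 higher by 1.66 while Timp2 and Timp4 were lower by -0.80 and -1.14. Of 24 collagen and matrix genes, 10 were called higher and 1 lower. Col1a2 read -1.19 to -0.26 (median -0.66) against -2.97 to -1.29 (median -1.63), a rise of 1.16 (standard error 0.24, adjusted p = 7.4e-04), while its other probe was not called at 0.02. Col6a1, Col6a2 and Col6a3 were not called, and Postn, a matrix protein of fibroblasts, was called lower at -1.03. Fibroblast markers had 4 higher and 0 lower of 14 with a median of -0.29, below that of all genes. Thy1, one of the 4, rose by 0.68 (standard error 0.13, adjusted p = 5.8e-04).

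Most markers of muscle, nerve and hormone-secreting cells were called lower in Il10-/- colon. Of 14 smooth muscle genes, 13 were called lower and 0 higher, with a median of -1.01. Lmod1, which nucleates muscle actin filaments, read -0.47 to 0.66 in Il10-/- mice (median 0.12) and 1.38 to 1.97 in C57BL/6J mice (median 1.66), a difference of -1.51 (standard error 0.16, adjusted p = 5.1e-07). Of 19 genes of enteric neurons and glia, 13 were called lower and 0 higher, with a median of -1.11. S100b, a glial calcium-binding protein, read -0.24 to 0.86 (median 0.06) against 1.74 to 2.81 (median 2.44), a difference of -2.13 (standard error 0.20, adjusted p = 8.2e-08). The neurotransmitter peptide Vip changed by -1.42 and the neuronal enzyme Uchl1 by -1.76. Nmu, a neuropeptide of enteric neurons, read -0.88 to 0.41 (median -0.64) against 1.94 to 3.06 (median 2.56), a difference of -3.05 (standard error 0.27, adjusted p = 3.1e-08). Pcdh17, a protocadherin, read -2.21 to -1.62 (median -1.96) against 0.39 to 1.72 (median 1.16), and all 3 of its probes were called lower.

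Of 14 genes of enteroendocrine and tuft cells, 9 were called lower and 1 higher, with a median of -0.95. Chgb, a granin of secretory granules, read -0.45 to 0.89 in Il10-/- mice (median -0.10) and 1.51 to 3.30 in C57BL/6J mice (median 2.23), a difference of -2.27 (standard error 0.27, adjusted p = 1.3e-06), while its other probe was not called at -0.09. The granin Chga, the serotonin-forming enzyme Tph1 and the colonic hormone Insl5 changed by -2.20, -1.91 and -1.71, with no overlap between strains for any of them. The tuft cell genes Trpm5 and Dclk1 were lower by -0.91 and -1.05 with overlapping groups, and Pou2f3, the factor that specifies tuft cells, was not called at 0.04.

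Adipocyte markers varied widely among mice of both strains. Of 12 genes, 9 were called lower and 0 higher, with a median of -2.20, but the groups overlapped for all 12. The median of the list, relative to the control mean, was -3.22 to -1.34 in 5 Il10-/- mice and -0.26 in replicate 2. In C57BL/6J mice it was 0.15 to 0.91 in 5 mice and -2.61 in replicate 5. Fabp4, the fatty acid carrier of fat cells, ran from -2.82 to 1.57 in Il10-/- mice and from -1.15 to 2.77 in C57BL/6J mice. On slides 1, 4, 5 and 6 alone, a choice made after the data were seen, 2 of the 12 genes were called lower. How much fat adhered to each piece is not given in the sources used here, and its part in the differences of other lists was not tested. Leaving out 1 array at a time, 5 (without replicate 3 of the Il10-/- mice) to 11 of the 12 were called lower.

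**Figure D4:**
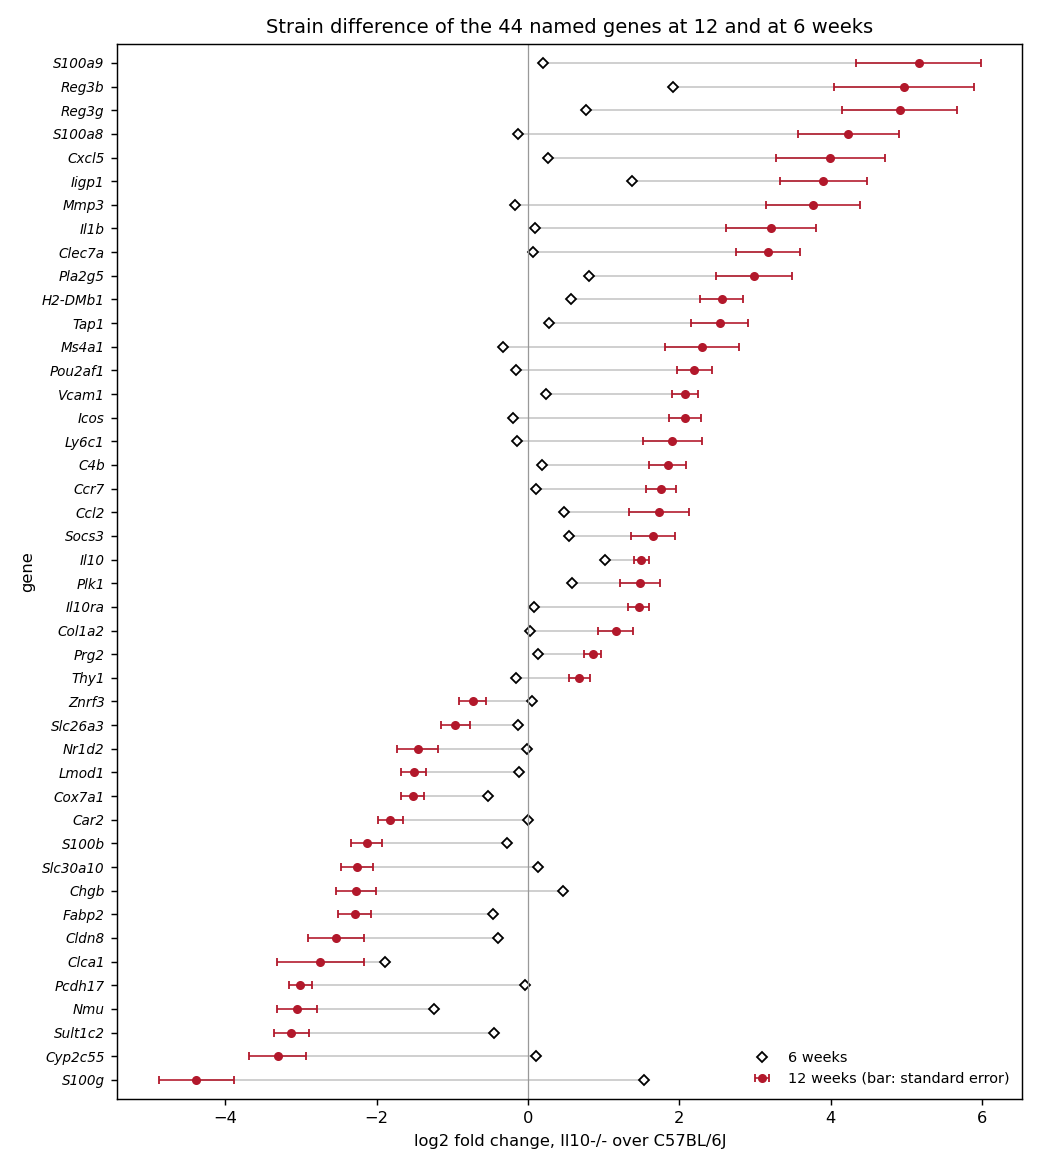
Log2 fold change of Il10-/- over C57BL/6J colon for the 44 genes named by rule, at 12 weeks (filled, with standard error) and at 6 weeks (open diamonds). At 12 weeks the values run from -4.39 for S100g to 5.17 for S100a9, and at 6 weeks the values farthest from 0 are those of Reg3b (1.92), Clca1 (-1.89), S100g (1.54, opposite to its fall at 12 weeks), Iigp1 (1.37), Nmu (-1.25) and Il10 (1.01), of which Il10 was called.

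The epithelial marker list had a median of 0.20, above that of all genes. Of its 14 genes, 11 were not called, among them Krt8, Krt20, Epcam and Vil1 at 0.19, 0.41, 0.22 and 0.29, and Slc26a3, Car1 and Phgr1 were called lower. Slc26a3, which takes up chloride and secretes bicarbonate, read -1.13 to -0.56 in Il10-/- mice (median -0.81) and -0.28 to 0.80 in C57BL/6J mice (median 0.01), a difference of -0.96 (standard error 0.20, adjusted p = 8.3e-04). Of the 3 probes of Slc26a3, 2 were called, and the one nearest to 0 was at -0.12. Goblet cell genes were mixed, with 1 higher and 3 lower of 13. Muc2, the main mucin, was not called at -0.00 (adjusted p = 0.99), while Clca1, a protease of the mucus layer, read -3.66 to -1.96 (median -3.06) against -1.25 to 0.74 (median -0.36), a difference of -2.74 (standard error 0.58, adjusted p = 0.0010). Of 14 crypt base genes, 3 were called higher and 1 lower, and the stem cell marker Lgr5 was not called at 0.07. The member lower, Znrf3, an inhibitor of Wnt receptors, changed by -0.73 (standard error 0.18, adjusted p = 0.0042), and by -0.54 without replicate 6 of the controls, below the fold threshold.

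Of 26 proliferation genes, 15 were called higher and 0 lower, with a median of 0.80, and the groups were apart for 5. Relative to the control mean, the median of the list was 0.58 to 1.196 in 5 Il10-/- mice and 0.07 in replicate 2, within the -0.23 to 0.22 of the controls. Plk1, a mitotic kinase, read -0.66 to 0.79 in Il10-/- mice (median 0.27) and -1.80 to -0.68 in C57BL/6J mice (median -1.24), a rise of 1.48 (standard error 0.26, adjusted p = 1.7e-04). The mitotic genes Top2a and Mki67 rose by 1.25 and 0.94, while Pcna and the replication helicase genes Mcm2 to Mcm7 were not called. Of 24 genes of junctions, 3 were called higher and 2 lower. Cldn8, a sealing claudin, read -2.70 to -0.18 (median -1.23) against 0.86 to 1.84 (median 1.24), a difference of -2.53 (standard error 0.37, adjusted p = 2.1e-05). Ocln, Tjp1 and the pore-forming Cldn2 were not called at -0.38, -0.19 and -0.05.

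Some transporters of the absorptive colonocyte were lower and a few higher. Of 29 ion and water transport genes, 7 were called lower and 2 higher, and of 26 nutrient and bile acid transporters, 9 lower and 1 higher. Car2, a carbonic anhydrase of colonocytes, read -1.52 to -0.29 in Il10-/- mice (median -1.24) and 0.52 to 0.97 in C57BL/6J mice (median 0.72), a difference of -1.82 (standard error 0.16, adjusted p = 5.0e-08). Slc10a2, which takes up bile acids, changed by -2.21, and the drug efflux pump Abcb1a by -2.05. The water channels Aqp4 and Aqp8 rose by 1.51 and 1.48, and Slc5a8, which takes up butyrate, rose by 1.14. Cftr and the 3 subunits of the epithelial sodium channel, Scnn1a, Scnn1b and Scnn1g, were not called. S100g, which carries calcium through the absorptive cell, fell most of all genes. It read -4.57 to -2.32 (median -3.72) against -0.08 to 1.42 (median 0.78), with the highest Il10-/- value in replicate 2. Of 11 genes tied to vitamin D, 3 were called lower and 0 higher. Besides S100g these were the manganese exporter Slc30a10 and the calcium pump Atp2b1, which changed by -1.11, while the receptor Vdr itself was not called at -0.43 with an adjusted p of 0.044.

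Xenobiotic metabolism was the pathway list with the lowest median. Of 41 genes, 27 were called lower and 0 higher, with a median of -0.80. Cyp2c55, a colonic cytochrome P450, read -1.48 to 1.96 in Il10-/- mice (median -0.55) and 2.50 to 3.81 in C57BL/6J mice (median 3.12), a difference of -3.31 (standard error 0.38, adjusted p = 9.7e-07). Sult1c2, a sulfotransferase, read -2.56 to -1.17 (median -2.25) against 0.60 to 1.46 (median 0.98), a difference of -3.13 (standard error 0.23, adjusted p = 2.4e-09). Both were apart between strains, again with replicate 2 nearest to the controls. Among others, Cyp4b1, Sult1d1 and Sult1a1 changed by -2.73, -2.13 and -2.06. The aryl hydrocarbon receptor target Cyp1a1 was not called at -0.84, nor was the xenobiotic receptor Nr1i2 at 0.42.

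Of 28 nuclear receptors and partners, 9 were called lower and 0 higher. Nr1d2, a repressor in the circadian clock, read -1.93 to -0.78 in Il10-/- mice (median -1.48) and -0.26 to 0.56 in C57BL/6J mice (median -0.05), a difference of -1.46 (standard error 0.28, adjusted p = 3.5e-04). Vdr, Hnf4a and Pparg were not called. Of 31 genes of fatty acid oxidation and ketone formation, 14 were called lower and 0 higher, with a median of -0.52. Fabp2, which carries fatty acids in absorptive cells, read -4.11 to -2.96 (median -3.67) against -1.66 to -0.83 (median -1.40), a difference of -2.29 (standard error 0.22, adjusted p = 1.1e-07). The fatty acid receptor Cd36 and Pdk4, a kinase that restrains glucose oxidation, changed by -1.83 and -1.63 with overlapping groups. Acsl1 is also an adipocyte marker. Relative to the control mean, the median of the fatty acid list was -0.71 to -0.57 in 5 Il10-/- mice and 0.01 in replicate 2, whose adipocyte markers also lay nearest to the controls. It was -0.10 in replicate 5 of the controls, where adipocyte markers were low. The part of adipose tissue in the result was not tested.

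Of 32 genes of oxidative phosphorylation, 4 were called lower (12.5%) and 0 higher, with a median of -0.16. Cox7a1, a subunit isoform of muscle and fat, read -2.79 to -1.85 in Il10-/- mice (median -2.34) and -1.10 to -0.47 in C57BL/6J mice (median -0.87), a difference of -1.53 (standard error 0.15, adjusted p = 1.2e-07). Of 19 cholesterol synthesis genes, 8 were called higher and 0 lower, and the groups overlapped for all 19. Of 19 genes of the prostanoid pathway, 4 were called higher and 6 lower. Pla2g5, a secreted phospholipase, read 0.64 to 1.98 (median 1.75) against -1.97 to -0.45 (median -1.37), a rise of 2.99 (standard error 0.50, adjusted p = 9.5e-05). Hpgd, which inactivates prostaglandins, fell by 1.94 (standard error 0.28, adjusted p = 1.9e-05).

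A list of 32 bowel disease genes that the study discusses had 28 higher and 1 lower, with a median of 1.70. The study took the list from earlier work on the mucosa of patients. Of 15 genes of the S100 family, 5 were called higher and 3 lower, with a median of -0.10. The family thus held both the largest rise and the largest fall of all genes, S100a9 and S100g.

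Few genes were called between the strains at the younger age. At 6 weeks 63 genes (0.228%) were called. The difference between the 12 week and the 6 week strain effect was tested directly, as an interaction in the same model, and was called for 2204 genes (7.97%), with 1046 higher (3.78%) and 1158 lower (4.19%). Of the 44 genes named by rule, chosen for their difference at 12 weeks, 34 had a called interaction. It was -5.92 for S100g (adjusted p = 3.4e-05) and 4.37 for S100a8 (adjusted p = 0.0043). The interaction was called for 15 of 19 neutrophil markers, 12 of 14 smooth muscle markers and 19 of 41 xenobiotic genes, but for 7 of 34 interferon-induced genes and 0 of 26 proliferation genes. In the interferon and proliferation lists the strain difference at 6 weeks had medians of 0.18 and 0.33 against -0.02 for all genes, with 0 genes called at that age in either list. Such medians were not limited to these lists. Class II genes had 0.25 with 8 of 11 interactions called, and adipocyte markers 0.53 with 4 of 12. For Iigp1 the 6 week value of 1.37 was not called, with overlapping groups (-3.51 to 0.03 in Il10-/- and -4.64 to -1.26 in C57BL/6J mice), and its interaction of 2.53 was not called either (standard error 0.82, adjusted p = 0.057).

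Some 6 week old mice stood apart from their group, and their arrays enter these interactions. Among 88 groups of 6 values (the 44 named genes in each strain), 16 held an array far from the other 5, where 1 in 20 gives 4.4. The same arrays recur over related genes, so 1 array counts many times and these counts are not a test. Replicate 2 of the Il10-/- mice was the array apart for 6 genes, replicates 2 and 5 of the C57BL/6J mice for 4 each, and other arrays for 1 each of the remaining 2. Replicate 2 of either strain lay on slide 2, so mouse and slide cannot be told apart for these arrays. In replicate 5 of the C57BL/6J mice at 6 weeks S100a8 read 2.62 and S100a9 3.64, where the other 5 controls of that age read -2.50 to -1.40 and -2.88 to -0.40. The same mouse read 3.65 for Cxcl5 (others -0.30 to 0.09), 4.04 for Il1b (others -0.44 to 1.15) and 4.33 for Mmp3 (others -0.49 to 0.40). Its level of these genes was thus above every other control of its age. Replicate 2 of the Il10-/- mice read 3.62 for Cxcl5 (others -0.49 to 1.02) and -1.10 for C4b (others -2.99 to -2.35). Replicate 2 of the C57BL/6J mice read -2.51 for Clca1 (others 0.98 to 2.82) and -0.42 for Sult1c2 (others 0.50 to 0.74).

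The 12 arrays of 6 week old mice were left out one at a time, for the named genes a choice made after the data were seen. Of the 34 named genes 33 or 34 remained called each time, and the one lost was Col1a2. The count over all genes was 2539 without replicate 2 of the Il10-/- mice and 1924 without replicate 2 of the controls. The interaction of Cxcl5 remained called, with an adjusted p of 0.0036 to 0.045. That of S100g ran from -6.19 to -5.43, the value nearest to 0 being without replicate 2 of the controls. Without replicate 5 of the controls the interaction fell to 3.62 for S100a8 (adjusted p = 0.0015), to 4.06 for S100a9 (adjusted p = 0.0044) and to 2.50 for Il1b (adjusted p = 0.017), each still called. Col1a2 was lost at 1.103 (adjusted p = 0.055), and 2146 genes were called in all. Neutrophil markers had 12 of 19 called without it (12 to 15 over the 12 arrays left out in turn), smooth muscle markers 12 of 14, xenobiotic genes 19 of 41, interferon-induced genes 8 of 34 and proliferation genes 0 of 26. At 6 weeks 52 genes were then called between the strains.

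The neighbourhood of Il10 on chromosome 1 was described apart, without a test of its share of calls. Of 262 genes within 20 Mb of the Il10 probe, 44 (16.8%) were called at 12 weeks, against 12.6% of 27396 genes with a position. At 6 weeks 9 (3.44%) were called, against 0.230%. With Il10 itself, which the counts above leave out, there were 7 genes called at both ages. For 1 of them, 3110009E18Rik, the calls came from different probes, since its brightest probe was called higher at 6 weeks (0.68, adjusted p = 0.0097) and not called at 12 weeks (0.29, adjusted p = 0.11), when another probe was called lower. Rab7b, a GTPase of lysosomes that lies 0.68 Mb from Il10, read -0.04 to 0.95 in Il10-/- mice (median 0.36) and 2.33 to 2.86 in C57BL/6J mice (median 2.53), a difference of -2.19 (standard error 0.16, adjusted p = 1.4e-09) after -2.43 at 6 weeks. Zc3h11a, an RNA export factor at 2.59 Mb, was higher by 1.00 after 0.91 at 6 weeks. For both genes the interaction was not called, at 0.25 and 0.09. Other neighbours differed at 12 weeks with a called interaction. Pigr, the receptor that carries IgA into the lumen, was higher by 1.76 and the leukocyte antigen gene Ptprc by 1.52, with interactions of 1.01 and 1.68.

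**Figure D5:**
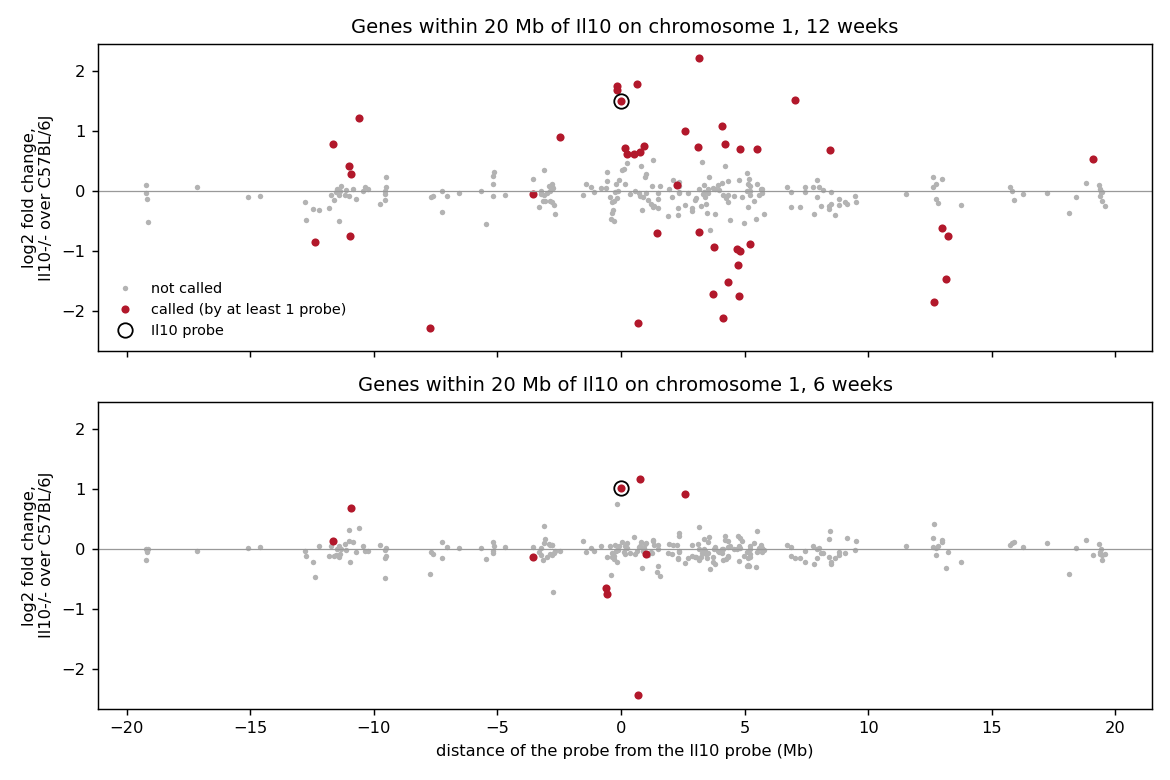
Log2 fold change of Il10-/- over C57BL/6J colon (vertical axis) against distance from the Il10 probe in Mb on chromosome 1, at 12 weeks (top) and 6 weeks (bottom); each point is a gene, coloured where at least 1 probe was called, and the Il10 probe is ringed. Besides Il10, which is coloured at both ages, 44 of 262 genes are coloured at 12 weeks and 9 at 6 weeks, with Rab7b at -2.19 and -2.43.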

How the data were processed

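Two-colour Agilent arrays carried Cy3-labelled colon RNA beside a Cy5-labelled reference pool, without exchanged dyes. The authors deposited scanner output, whose mean spot intensity in each channel was used here, and a table of normalized log2 ratios, which was an alternative. Their Feature Extraction positions are of mm7, and the submitters' processing notes name limma and R 2.14.1.

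Spots marked as outliers (77 to 221 per array) and control spots were left out. Log2 ratios were loess-normalized within arrays (span 0.3, 4 iterations) without background correction, turned to sample over reference, and averaged over spots of a probe. All 24 intact-colon arrays in 4 groups entered 1 limma fit (limma 3.58.1, R 4.3.3, Python 3.11.15, matplotlib 3.10.9), with p-values adjusted by Benjamini-Hochberg over all 41174 probes. The fit was tested on simulated data. The brightest probe of a gene is printed. Values correlated with the deposited table at 0.999973 or more.

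The genes named by rule were Il10, Il10ra, S100a8, S100a9 and S100g, and the 5 largest rises and 5 largest falls among called genes with a RefSeq name and no overlap. From each list the largest change among called genes without overlap was added. The members and lists were chosen with earlier results of these data known. Each replicate number is 1 slide in the file headers, with 1 array of each group. Of the 6 same-numbered pairs 3 correlated above 0.1. The fit printed has no slide term, and the fit with slide as a block is among the alternatives. Alternatives changed background correction, normalization, filters, thresholds, samples and slides. The number of arrays limits precision. Results for a few list members are not reported here.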

Additional observations from a re-analysis of the deposited data

Results flagged for a closer look

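Of 120 groups of 6 mice tested for a mouse far from the others, 16 held one, where chance gives about 1 in 20, or 6. The groups are the same arrays read over related genes, so 1 array counts many times and these counts are not a test. Mouse and slide cannot be told apart for replicate 2 of the Il10-/- mice, on slide 2, which was the array apart for 10 of the named genes. Its log2 ratio was -0.6571 for Reg3b, -1.032 for Reg3g, 0.4848 for Cxcl5, -0.2333 for Socs3 and -0.9461 for Iigp1. It was 0.6409 for Pla2g5, -0.5959 for Ly6c1, -1.175 for Sult1c2 and 0.4068 for Nmu, on the side of the controls in each case. For C4b it was -0.09313, above the other 5. The median of the neuron and glia list, relative to the control mean, was -0.5101 in this mouse and -0.414 in replicate 3 of the controls, each apart from its own group. Among the controls at 12 weeks, replicate 5 stood apart with S100a9 at -0.5276, the T cell list at 0.4217 and the adipocyte list at -2.606, and replicate 1 with Mmp3 at -0.3474.

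For 34 of the 44 named genes the strain difference at 12 weeks differed from that at 6 weeks by the interaction in limma. The genes were chosen for their 12 week difference, which enters the interaction. Among genes of inflammation it was 1.38 for Il10ra, 4.37 for S100a8, 4.967 for S100a9, 4.15 for Reg3g, 3.118 for Il1b, 3.117 for Clec7a and 1.659 for both Ccr7 and C4b. For Cxcl5 it was 3.726, a size that is not well measured, since no 12 week control array was well above background. It was 2.257 for Tap1, 1.998 for H2-DMb1, 2.27 for Icos, 2.626 for Ms4a1, 2.356 for Pou2af1, 2.054 for Ly6c1 and 0.726 for Prg2. In vessels and matrix it was 1.837 for Vcam1, 3.946 for Mmp3, 1.128 for Col1a2 and 0.8335 for Thy1. Genes of epithelial transport and metabolism had -5.923 for S100g, -3.416 for Cyp2c55, -2.68 for Sult1c2, -1.826 for Car2, -2.39 for Slc30a10, -1.836 for Fabp2 and -2.13 for Cldn8. The values were -1.442 for Nr1d2, -0.9968 for Cox7a1, -1.387 for Lmod1, -1.86 for S100b, -1.802 for Nmu, -2.733 for Chgb and -2.964 for Pcdh17. Several younger mice had values apart from their group, among them replicate 2 of either strain at 6 weeks, and leaving out any one of the 12 younger arrays kept 33 or 34 of the 34 called. One was C57BL/6J replicate 5 at 6 weeks, whose S100a8, S100a9, Cxcl5, Il1b and Mmp3 lay far above the other controls of that age. With that array left out, the interaction was 3.62 for S100a8, 4.06 for S100a9, 3.10 for Cxcl5, 2.50 for Il1b and 3.23 for Mmp3, and 33 of the 34 remained called, all but Col1a2.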

How the results depend on the processing

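The strains differed at 12 weeks in 3475 genes, of which 1480 were higher and 2001 lower. The fit with slide as a replicate block called 3500 (1481 higher, 2026 lower), the deposited ratios gave 3471 and normexp 3458. Agilent's processed signals, centred on the median, gave 2327 higher among 4890. Without a fold threshold 7527 were called (3034 higher, 4546 lower), and at a fold of 2 there were 1368 (701 higher, 667 lower) with 1128 interactions (625 higher, 503 lower). Array weights gave 4119 genes called (1666 higher, 2462 lower), 3202 interactions (1420 higher, 1784 lower) and 23 lists with more genes higher than lower. Slides 1, 4, 5 and 6 alone, chosen after seeing the data, gave 3564. Slides 2 and 3 alone, with 2 arrays a group, gave 262 (170 higher, 92 lower), 3 interactions (2 higher, 1 lower), 13 lists with more genes higher than lower, and 7 genes within 20 Mb of Il10. Within 5 Mb 28 genes were called and within 50 Mb 143. Leaving out 1 array at a time gave 3128 to 3879 genes (1373 to 1599 higher, 1759 to 2291 lower), 25 to 26 lists with more higher, 41 to 48 genes within 20 Mb and 1845 to 2661 interactions (893 to 1214 higher, 952 to 1490 lower). For the named genes, 979 of 1012 alternative values kept direction and call, 33 kept direction only and 0 reversed. Of 2100 alternative list counts, 1928 stayed within 1.5 times. Of those that did not, 59 came from slides 2 and 3 alone, 47 from another fold threshold, 40 from leaving out 1 array and 26 from the remaining settings. The last 2 kinds touched only counts of 4 or fewer, besides the adipocyte genes lower (9, but 5 without Il10-/- replicate 3 and 2 on slides 1, 4, 5 and 6 alone). Metalloproteinase genes lower went from 3 to 5 without control replicate 5 or Il10-/- replicate 2, and oxidative phosphorylation genes lower from 4 to 2 without Il10-/- replicate 3. Tight junction genes higher went from 3 to 5 without control replicate 1 or 4, and crypt base genes higher from 3 to 1 without control replicate 3 or Il10-/- replicate 1 or 3. Collagen and fibroblast genes lower reached 4 and 3, from 1 and 0, without control replicate 5. No gene of pancreas, liver, muscle and blood was called with all arrays, and 1 was lower without control replicate 5 or 6 or Il10-/- replicate 2. Other moves from leaving out 1 array were between 0, 1 and 2 genes. The cause of these shifts was not tested, beyond the fewer arrays or other thresholds that each setting has.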
